A study of Homo sapiens with 2 samples.

Results

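The established cell line HepG2 comes from a human liver carcinoma and makes many of the proteins that hepatocytes secrete. The study treated these cells for 24 h with hawk tea extract (HTE), an ethanol extract of leaves or buds of Litsea coreana dissolved in dimethyl sulfoxide (DMSO), or with DMSO alone, to ask which pathways of lipid metabolism the extract alters. Both groups were cultures of this line in medium with fetal bovine serum, and each was profiled on 1 Agilent 1-colour array. The study describes a slight loss of viability at the dose it used for the arrays, and HTE is a mixture of many compounds. The labels give the HTE dose as 200 μg mL−1, whereas the deposited HTE array is named for 300 μg mL−1. The article's account of the arrays gives the dose in that name. The 9 genes described here are LIPG, LIPC, LPL, LIPH, LCAT, CETP, PLTP, ANGPTL4 and ANGPTL8. Apart from LIPH, a lipase that is not a lipoprotein lipase, they encode enzymes, transfer proteins and inhibitors of lipoprotein remodelling outside the cell. All 9 are among 23752 genes and unnamed transcripts whose signal passed the software's background test (well above background) on 1 array or both. LIPG was chosen by its large rise on these same arrays, so its change is given as a description. The other genes were grouped with it under the same process. With 1 array per condition no test between the conditions was run and no p value is given, the spread between cultures is not known, and array and treatment cannot be told apart.

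Lipoproteins change in composition after the liver secretes them. Lipases of one family cut triglycerides and phospholipids at the particle surface, LCAT esterifies cholesterol on high-density lipoprotein (HDL), and CETP and PLTP move lipids between particles. LIPG encodes endothelial lipase, which is held at the cell surface by heparan sulfate, acts mainly as a phospholipase on HDL, and is named for the endothelial cells in which it was described, although hepatocytes and other cells also make it. Hepatic lipase (LIPC) is its liver relative, and lipoprotein lipase (LPL) is the triglyceride lipase of adipose tissue and muscle. Proteins of the angiopoietin-like family hold these lipases in check.

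LIPG was the only one of the 9 genes past 2-fold. It was 8.29-fold higher in HTE-treated cells (log2 ratio of 3.05), and the other 8 genes had log2 ratios between -0.23 (LIPC) and 0.57 (ANGPTL4), with a median of 0.090. Thus 1 of the 9 genes was at least 2-fold higher and 0 were at least 2-fold lower, at a cutoff of 2-fold with no test. Among all 23752 genes, 5.25% were at least 2-fold higher and 3.03% at least 2-fold lower. The 1 gene past the cutoff is the one chosen for its rise, so its count is not a result about the 9 genes.

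The promoter of LIPG is shown because LIPG is the gene that rose, and that of LIPC because it is the liver relative of LIPG and had a log2 ratio below 0. Both are the 150 bases before the gene start in RefSeq (build GRCh38.p14, plus strand), chr18:49561907-49562056 for LIPG and chr15:58431841-58431990 for LIPC. Capitals mark matches, on either strand, to any of 4 short motifs. These were the core of the sterol response element (ATCACCCC), which SREBP2 binds, the core of the aryl hydrocarbon receptor element (GCGTG), the TATA box (TATAAA) and the CCAAT box (CCAAT).
LIPG: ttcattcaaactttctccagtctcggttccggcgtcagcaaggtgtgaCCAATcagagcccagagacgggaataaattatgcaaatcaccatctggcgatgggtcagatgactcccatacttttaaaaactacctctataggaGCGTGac
LIPC: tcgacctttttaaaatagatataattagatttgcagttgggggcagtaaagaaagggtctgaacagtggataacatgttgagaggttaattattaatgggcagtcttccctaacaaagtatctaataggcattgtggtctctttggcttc

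In the whole promoter window of 300 bases, 250 before and 50 after the start, LIPG held 3 matches to GCGTG and 1 to CCAAT, and none to ATCACCCC or TATAAA. The GCGTG matches began 184, 172 and 7 bases before the start, of which the last is in the stretch shown, and the CCAAT match began 102 bases before it. LIPC held no match to any of the 4 motifs. Of all 35116 promoter windows of the same length, 36.5% held GCGTG, 34.6% CCAAT, 11.5% TATAAA and 0.689% ATCACCCC. Both motifs with a match in LIPG are thus common, as counted by windows with at least 1 match. The share of windows with 3 matches to GCGTG was not counted. For the members, windows on 1 chromosome were left out of this search. The search held windows of 7 genes. LPL and LCAT had none in it, which need not have the same reason for both. Of these 7 genes none held ATCACCCC. ANGPTL8 and PLTP also held GCGTG, with 2 matches each, PLTP in 1 of its 2 windows. A match describes letters only and is not a binding site.

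Each of the 9 genes was measured by 1 spot of 1 probe per array, and all 9 spots were well above background on both arrays and carried no outlier flag. The signal is the background-subtracted intensity of the spot, and the level is its log2 value relative to the 75th percentile of that array (4020.0 on the DMSO array and 3570.3 on the HTE array). The error given with a signal is that of the scanner software's error model for the single spot and leaves out the variation between cultures. Carried to the log2 ratio, this error lay between 0.20 and 0.28 for the 9 genes. As a second measure of technical error, the median SD of the log2 ratio among replicate spots was 0.051 over 688 probes of other genes. It was 0.16 among different probes of the same gene, over 3759 genes. Levels are not compared between genes, because probes differ in brightness.

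**Figure D1:**
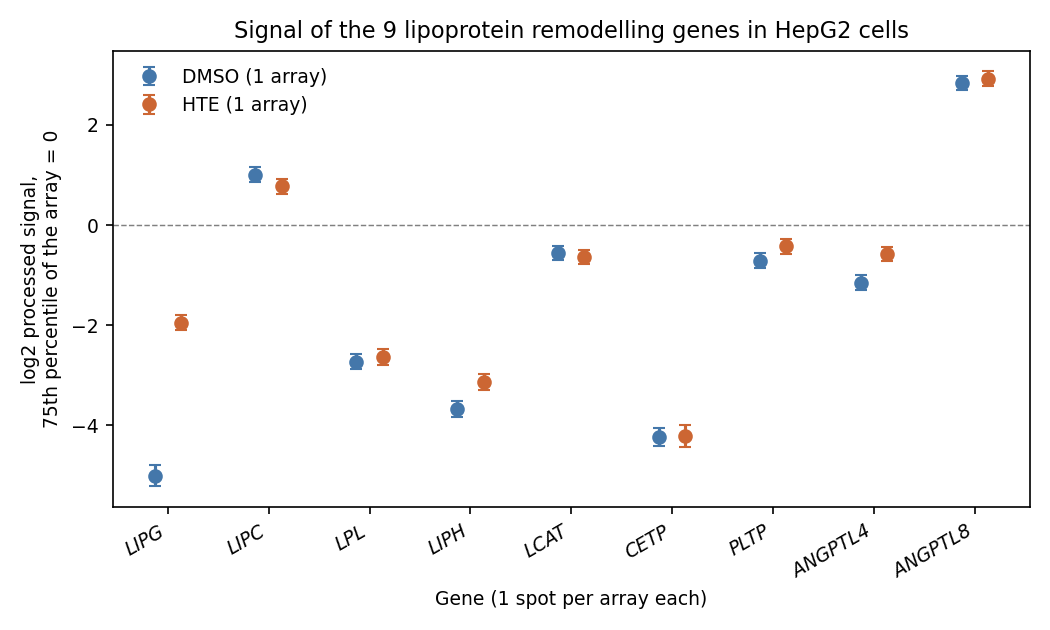
Level of each of the 9 genes on the DMSO array (blue) and the HTE array (orange), as log2 processed signal relative to the 75th percentile of the array (dashed line at 0). Points are single spots and bars are 1 error of the software's error model; LIPG moved from -5.00 to -1.95, and the bars of the other 8 genes lay close together or overlapped between the arrays.

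The signal of LIPG was 125 ± 18.6 (error of 1 spot) on the DMSO array and 923 ± 94.3 on the HTE array. The spot was thus dim in control cells, at 1.88 times the lowest signal that counted as well above background on that array (66.6), and at 9.75 times the lowest such signal (94.6) after HTE. Relative to the 75th percentile the level went from -5.00 to -1.95, and the log2 ratio of 3.05 was 11.7 times its error of 0.26. In the ranks of all spots that are not controls, LIPG moved from percentile 44.7 to percentile 62.5.

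The local background around the LIPG spot was the highest among the 9 genes, with a median pixel intensity of 58 on the DMSO array and 49 on the HTE array. For the other 8 genes it lay between 24 and 46. The LIPG spot itself had a median pixel intensity of 206 for DMSO and 1057 for HTE, so the difference is present before the background is subtracted. The 71 usable spots within 5 rows and columns of LIPG had a median log2 ratio of -0.041, and relative to them LIPG was higher by 3.09. With normexp correction of the median signal, another way to subtract this background, the log2 ratio of LIPG was 2.52.

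In control cells LIPG was among the dim genes, and a dim gene can pass the background test on both arrays more easily when it rises. In all, 1354 genes were well above background on both arrays and had a DMSO level within 0.5 of that of LIPG. Their median log2 ratio was 0.32, and the 5th and 95th percentiles were -0.31 and 1.52, against -0.83 and 1.03 over all 23752 genes. Of these genes 187 (13.8%) were at least 2-fold higher and 9, LIPG included, had a log2 ratio as high as that of LIPG.

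**Figure D2:**
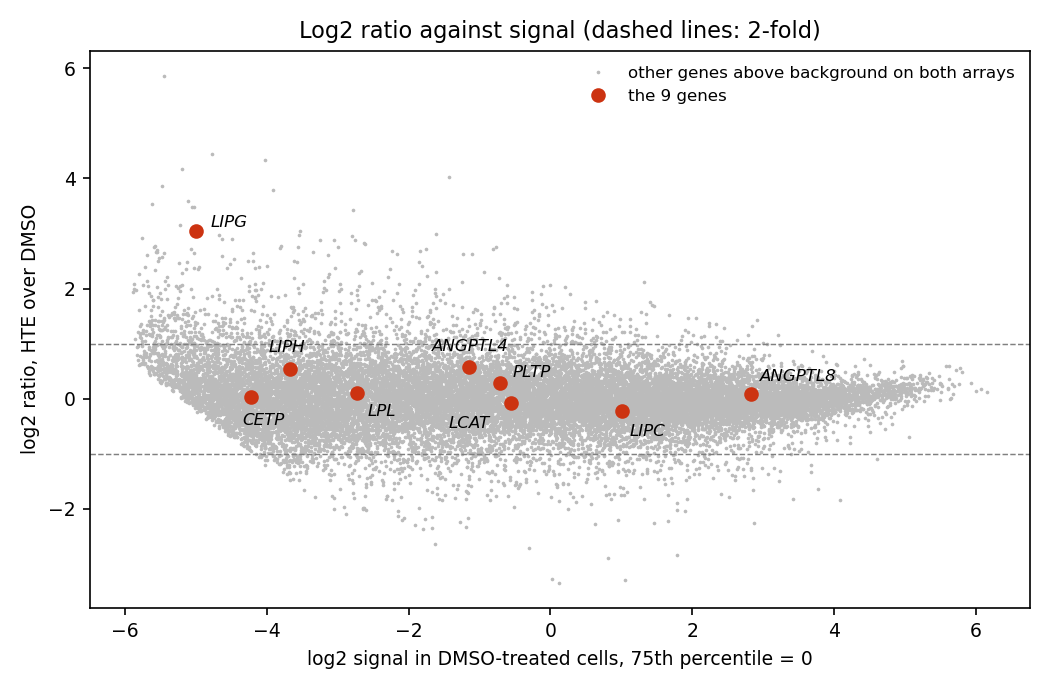
Log2 ratio of HTE over DMSO (vertical axis) against the log2 level in DMSO-treated cells (horizontal axis) for genes well above background on both arrays (grey), with the 9 genes in red. LIPG lies at 3.05, above nearly all genes of its level, and the other 8 genes lie between the dashed lines that mark 2-fold.

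Among the 14636 genes with a name that were above background on each array, LIPG had the sixth highest log2 ratio (rank 6). The 3 genes just above it were CYP1A1 (log2 ratio of 4.02), a target of the aryl hydrocarbon receptor that oxidises xenobiotics, PRECSIT (3.59), a long noncoding RNA, and KRTAP21-2 (3.53), a keratin-associated protein gene. The 3 just below were LURAP1L (3.04), CLDN6 (2.97), a tight junction claudin, and CREB5 (2.90), a transcription factor of the CREB family. The likeness here is only that of 1 ratio from 2 arrays. LURAP1L minus LIPG was -0.0082, smaller in size than the error of LIPG. Over all 23752 genes, unnamed transcripts and genes with a bound included, the value of LIPG lay at percentile 99.9.

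The other lipases were all below 2-fold. LIPC, hepatic lipase, had a signal of 8071 ± 807 (error of 1 spot) with DMSO and 6096 ± 610 with HTE, a log2 ratio of -0.23 (1.18-fold lower) with an error of 0.20. LPL had signals of 606 ± 62.5 and 574 ± 61.4 and a log2 ratio of 0.093 with an error of 0.21. The scaled value of LPL was thus slightly higher with HTE, and its signal slightly lower, a difference smaller than its error in both cases. LIPH, a membrane-bound lipase that releases lysophosphatidic acid from phosphatidic acid and is not a lipoprotein lipase, had signals of 314 ± 34.4 and 405 ± 45.1. Its log2 ratio of 0.54 (1.45-fold higher) was 2.39 times its error of 0.23 and below 2-fold. The difference in log2 ratio between LIPG and the next gene in order, ANGPTL4, was 2.48 with an error of 0.33, a description only, since LIPG was chosen for its rise.

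LCAT, the enzyme that esterifies cholesterol on HDL, had a signal of 2739 ± 274 with DMSO and 2301 ± 231 with HTE. Its log2 ratio was -0.080 with an error of 0.20, so that no difference was detectable at the precision of 1 spot. The study lists LCAT among the genes that HTE altered in its quantitative PCR of these cells, a separate measurement. CETP, which exchanges cholesteryl ester for triglyceride between lipoproteins, had signals of 215 ± 26.4 and 193 ± 29.8, a log2 ratio of 0.020 with an error of 0.28. It was a dim gene on both arrays, at 3.22 and 2.04 times the lowest signal well above background, and its sign changed with the scaling (-0.15 without scaling). PLTP, which transfers phospholipids between particles, had signals of 2456 ± 246 and 2656 ± 266, a log2 ratio of 0.28 (1.22-fold higher) with an error of 0.20. On these arrays the enzymes and transfer proteins that act on HDL beside LIPG thus stayed within 1.39 errors of their control value.

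ANGPTL4, a secreted inhibitor of LPL that is induced by fatty acids and fasting, had a signal of 1812 ± 182 with DMSO and 2387 ± 240 with HTE. Its log2 ratio of 0.57 (1.48-fold higher) was 2.78 times its error of 0.20 and the second highest of the 9, below 2-fold. ANGPTL8, an insulin-responsive protein that takes part in the inhibition of LPL, had signals of 28644 ± 2864 and 27032 ± 2703, and a log2 ratio of 0.088 with an error of 0.20. Ordered by log2 ratio the 9 genes ran LIPG, ANGPTL4, LIPH, PLTP, LPL, ANGPTL8, CETP, LCAT and LIPC. From ANGPTL4 down, no neighbours in this order differed by more than the error of their difference, which covers single spots and not cultures.

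**Figure D3:**
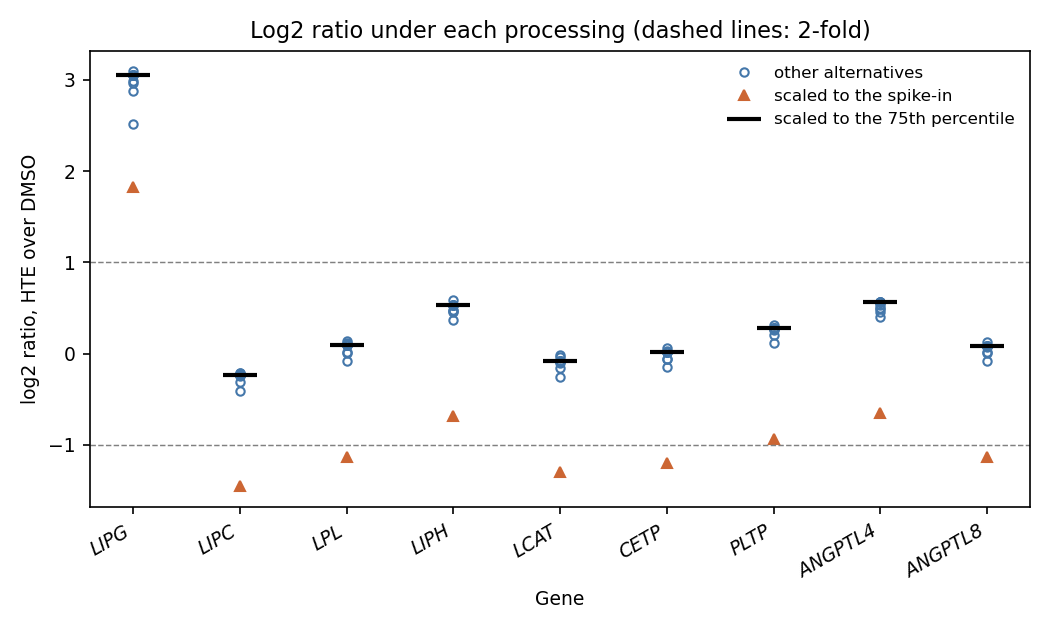
Log2 ratio of HTE over DMSO for each of the 9 genes with scaling to the 75th percentile (black bar), with 10 other treatments of the data (open circles) and with scaling to the E1A spike-in RNA (triangles). LIPG lies between 1.83 and 3.09 throughout, and the spike-in scaling puts the other 8 genes between -1.46 and -0.65.

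The scaling of the arrays changed the sign of some of the small ratios. Without scaling the log2 ratio of LIPG was 2.88, with 3 of the other 8 genes above 0 and 5 below, against 6 above and 2 below after scaling to the 75th percentile. The genes that fell below 0 were LPL (-0.079), ANGPTL8 (-0.084) and CETP. The E1A spike-in RNA, a viral control RNA that the kit adds to each sample, was brighter on the HTE array by 1.05 on the log2 scale (SD 0.40, n = 280 spots of 8 probes). Scaling to it put the median over all genes at -1.21 and LIPG at 1.83, with all other 8 genes below 0 and 5 of them at least 2-fold lower. Under the same scaling 68.2% of all 23752 genes were at least 2-fold lower, so the count is near the background. Scaling by a constant moves every gene above background on both arrays alike and cannot change the distance between such genes. With quantile normalization, which can, LIPG lay 2.92 above the median of the other 8 genes, against 2.96.

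The genes around this process were taken as 7 lists of 54 genes, of which 43 passed the background test on 1 array or both. Of these 43, 1 (2.33%) was at least 2-fold higher and 1 (2.33%) at least 2-fold lower, against 5.25% and 3.03% among all genes. Of the 43 genes, 20 had a log2 ratio above 0 and 21 below. The median was 0 for the 43 genes and for all genes, but both zeros come from bounds under 1-fold, which are set to 0. With dim probes at their own value the median over all genes was -0.033. The genes past 2-fold were VLDLR, a receptor that takes up lipoproteins, and ANGPTL1.

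**Figure D4:**
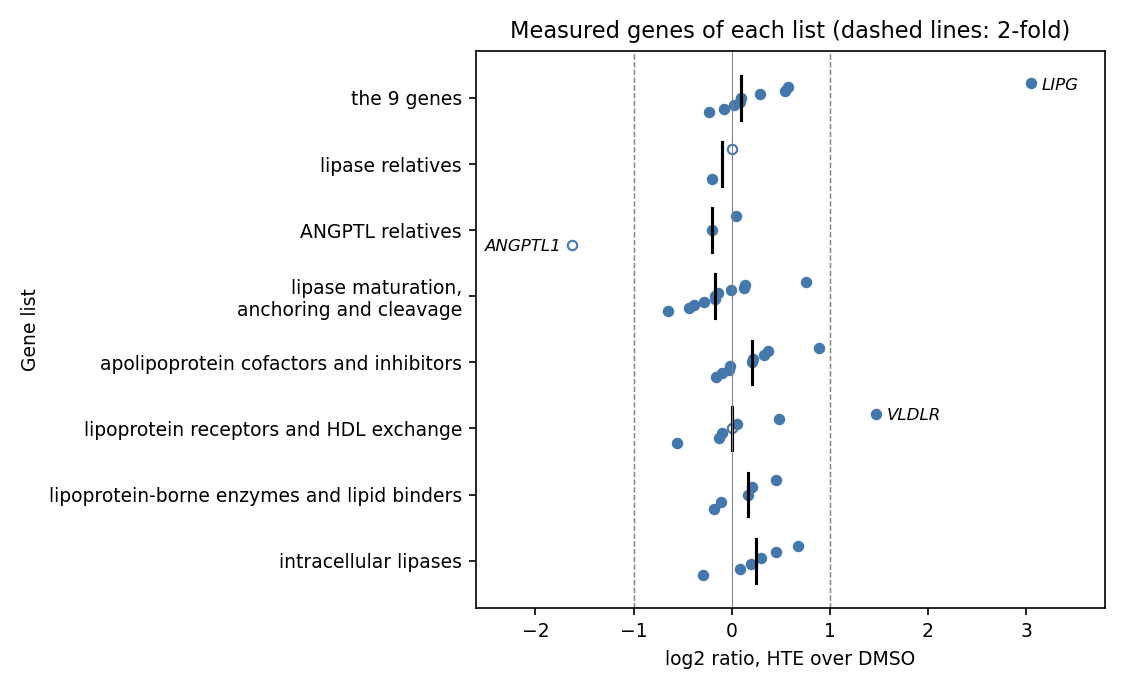
Log2 ratio of HTE over DMSO of the measured genes of the 9-gene set and of the 7 lists around it. Points are genes (open points are bounds from genes above background on 1 array only, a bound under 1-fold being set to 0), black bars are medians, and dashed lines mark 2-fold; genes past 2-fold are named.

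Among relatives of LIPG in the lipase family, LIPI, PNLIP, PNLIPRP3 and PLA1A, 4 of the 6 genes in the list, were not well above background on either array. PNLIPRP2 had a log2 ratio of -0.20, and PNLIPRP1 was above background in DMSO-treated cells only, with a bound of 0. In the angiopoietin-like family beside ANGPTL4 and ANGPTL8, ANGPTL2 had a log2 ratio of 0.04 and ANGPTL6 of -0.20. ANGPTL1 was above background in DMSO-treated cells only and was at least 3.09-fold lower with HTE. The probes of ANGPTL5 and ANGPTL7 were not well above background on either array.

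All 11 genes for the folding, anchoring and cleavage of lipases were measured, and 0 passed 2-fold (median log2 ratio of -0.17, with 3 above 0 and 8 below). LMF1, the chaperone that LPL, LIPC and LIPG need to mature, had a log2 ratio of 0.14, and SEL1L, its partner in the endoplasmic reticulum, had -0.17, the highest of its 3 probes, of which the lowest had -1.16. The proprotein convertases of the list, a family with members that cut LIPG and LPL, had -0.17 (PCSK7), -0.14 (FURIN), -0.01 (PCSK6) and 0.76 (PCSK5). The last was the largest value of the list. The 3 probes of PCSK5 went apart, from -1.81 to 1.08. GPIHBP1, the endothelial anchor of LPL, had -0.65, and the heparan sulfate proteoglycans SDC1, HSPG2 and COL18A1, to which such lipases bind, had -0.38, -0.44 and -0.28.

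The 9 apolipoproteins that activate or inhibit these enzymes were all measured, with a median log2 ratio of 0.21 and 0 past 2-fold. That median was 0.035 without scaling and -0.013 with quantile normalization. APOA4 had the highest value (0.89). APOA1, the activator of LCAT and main protein of HDL, had 0.21 (-0.048 with quantile normalization). APOC2, the cofactor of LPL, had -0.10, and APOC3, an inhibitor of LPL, had -0.01. Of the receptors and exporters that handle HDL and the remnants of lipolysis, VLDLR had a log2 ratio of 1.47 (2.78-fold higher, and a log2 ratio of 0.25 with spike-in scaling), although its dimmer probe went the other way (-0.63). SCARB1, the HDL receptor, had -0.10, and ABCA1, which exports cholesterol to HDL, had -0.56. ABCG1, of the same list, was above background in DMSO-treated cells only, with a bound of 0 (-1.93 with its own dim signal). The lipoprotein-borne enzymes and lipid binders had a median of 0.17 over 5 of 8 measured genes, with the largest value in PLA2G7 (0.45), and 0 past 2-fold. The intracellular lipases had a median of 0.25 over 6 of 7 genes, with the largest value in PNPLA3 (0.67), and again 0 past 2-fold.

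The labelled cell type carried its defining markers. All 8 hepatocyte markers, ALB and TTR among them, were above background on both arrays, with log2 ratios between -0.36 and 0.32. Endothelial cells make LIPG, and adipocytes and macrophages make LPL, so markers of those cells were examined. Of 6 endothelial markers, CDH5, KDR, TEK and EMCN were not well above background, and PECAM1 and VWF were lower with HTE, by a log2 ratio of -1.82 and -0.63. The summed level of the endothelial list was -2.03 with DMSO and -3.54 with HTE, most of it from the brighter probe, that of PECAM1 (-2.32 and -4.14). Of 5 adipocyte markers 4, among them ADIPOQ and PLIN1, were not well above background. CIDEC, which liver cells also express, was, with a log2 ratio of 0.82 (1.45 for its other probe). Of 6 macrophage markers 3 were measured, with log2 ratios of 0.14 for PTPRC (-0.88 for its dimmer probe) and -1.77 for CD14, and MSR1 at least 2.69-fold higher, and the summed level went from 0.32 to -0.18. Both samples were cultures of the HepG2 line, so these marker signals are not read as the presence of other cell types. Whether any such cells took part in the LIPG value was not tested. Of the 6 stellate and fibroblast markers 4 were measured, with a median of 0.083. The array cannot tell more LIPG RNA in every cell from LIPG RNA in more of the cells.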

How the data were processed

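The authors labelled total RNA of DMSO-treated and HTE-treated HepG2 cells with Cy3, hybridised it to Agilent SurePrint G3 human arrays, and deposited the Feature Extraction output (version 11.5.1.1 in the file headers, 10.7 in the submitters' processing notes). Each deposited value is an intensity, the signal of a spot after processing, background-subtracted and detrended by that software and not scaled between arrays, with its error, flags, median signal and local background. Of 58717 spots that are not controls, 60.6% (DMSO) and 56.6% (HTE) were well above background, 440 and 459 outlier spots were left out, and 0 were saturated. The number of arrays limits the precision.

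From these, log2 of the processed signal minus the 75th percentile of each array was taken, and replicate spots were averaged per probe. Probes entered if a share of 0.5 or more of their spots passed the background test on either array. A probe dim on 1 array entered as a bound, its bright level against its own signal on the dim array or, if higher, the lowest signal that passed there. Probes were named through the RefSeq accession given in the files (GRCh38.p14 gene table, 28146 of 50532 probes matched), and the brightest probe stood for a gene with several. Genes at 2-fold or more were counted. The ratio and 2-fold call steps were first tested on simulated data. That test did not cover the bounds, the errors, the motifs or the other treatments of the data. The genes named are the 9 members, the genes of each list past 2-fold or else with the largest ratio, and 3 genes on either side of LIPG in order of ratio; others of the lists were named for their role after their values were seen. Some genes of these lists are not reported here. The members and lists were chosen with earlier results of these data known, and the promoter motifs after LIPG had been seen to rise. The array design of the files is on another build than the promoter table, and positions refer to the latter. Software was Python 3.11.15 (matplotlib 3.10.9, pandas 2.3.3, numpy 2.4.6) and R 4.3.3 (limma 3.58.1).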

Additional observations from a re-analysis of the deposited data

How the results depend on the processing

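LIPG had a log2 ratio of 3.05, and of 2.52 with normexp background correction (offset 50), 2.98 with quantile normalization, 2.97 with scaling to the median, 2.88 without scaling and 1.83 with spike-in scaling. It moved by less than the median SD among replicate spots (0.051) when neighbouring spots were subtracted (3.09). The remaining alternatives (filters, bounds, outlier spots and mean over probes) could not change it. LIPG has 1 probe with 1 unflagged spot, well above background on both arrays. LIPG was above 2-fold in all 11. It was the 1 gene of the 9 above 2-fold in each of them and at cutoffs of 1.5-fold and 3-fold. With spike-in scaling 5 of the 9 genes were at least 2-fold lower, against 0 otherwise, as were 68.2% of all genes (0.598% were higher). Of the 43 pathway genes, spike-in scaling gave 0 higher and 31 lower (near that share of all genes). The mean over all probes gave 0 higher (5.21% of all genes), and normexp correction 0 lower (1.97%). The requirement of signal above background on both arrays, which leaves out genes entered as bounds, gave 0 lower (2.96%). Without a filter on dim probes, listed genes that failed the background test also entered, and 2 were higher and 2 lower. Among all genes without that filter 5.81% were higher and 4.54% lower. When dim probes kept their own value, 2 pathway genes were lower (5.56% of all genes). A common shift of the ratios of genes above background on both arrays follows from how spike-in scaling is built, and the other causes were not tested. No paired analysis was possible because each condition has 1 array.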
